A study of Danio rerio with 4 samples.

Results

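The Eph receptors and their ephrin ligands were examined in whole zebrafish embryos as all gene symbols that begin with epha, ephb, efna or efnb followed by a digit. The deposited tables held 28 such genes, with 53 transcripts, of 28697 gene symbols in all. They comprised 8 EphA and 7 EphB receptor genes, and 8 ephrin-A and 5 ephrin-B ligand genes. The embryos had been injected with morpholinos, which are synthetic antisense oligomers. The dose was 8 ng for the control morpholino, or 4 ng each for the pair aimed at rbm14a and rbm14b. Whether that pair blocks translation or splicing is not stated in the labels. All groups also carried 300 pg of GFP mRNA and were kept at 28.5 °C. Each of the 4 libraries came from a single pool of 50 embryos, so that each treatment has 1 library from 10 hours after fertilization (hpf), when gastrulation ends, and 1 from 24 hpf. No uninjected or rescued embryos were among the samples, so loss of Rbm14 and other effects of the morpholinos cannot be told apart. The study asks how the RNA-binding protein Rbm14 acts in dorsoventral patterning.

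Eph receptors are receptor tyrosine kinases that bind ephrins on the surface of neighbouring cells, and both partners can signal into their own cell. Ephrin-A proteins are held in the membrane by a lipid anchor and bind mainly EphA receptors, whereas ephrin-B proteins span the membrane and bind mainly EphB receptors. EphA4 is an exception that also binds ephrin-B ligands. In the zebrafish embryo the system keeps cells of adjacent hindbrain segments apart, forms somite boundaries, guides axons and separates arteries from veins.

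Values are TPM, a length-corrected share of all transcripts, summed by symbol. Levels of different genes in a library may thus be compared, but the number of reads behind a value is not known. Since each group is 1 library, differences have no replicate check and no p-value is given. A ratio between libraries was taken after scaling each pair on its shared genes and adding 0.5 TPM, which understates differences of low genes. The size rule asked for a difference of 2-fold or more and for 5 TPM or more in the higher library. The scaling subtracted a log2 shift, in the rbm14 over the control library, of −0.25 at 10 hpf and 0.64 at 24 hpf, so directions of small ratios depend on it. The targeted rbm14a was listed at 170 TPM (control) and 254 TPM (rbm14) at 10 hpf, then 70.5 and 82.7 TPM, and rbm14b at 28.8 and 19.3 TPM, then 21.0 and 28.2 TPM. Since a morpholino need not lower its target's RNA, these levels do not check the labels. The rbm14 library at 24 hpf held more genes at 5 TPM or more (8866) than the other libraries (6305 to 7120).

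Few members were expressed at an appreciable level. Of the 28 genes, 8 reached 5 TPM in at least 1 library, 7 peaked between 1 and 5 TPM, and 13 stayed under 1 TPM in all 4 libraries. The low group held 8 receptors and 5 ligands. Epha4a, the receptor of both ligand classes, was the highest member in every library, at 64.3 TPM (control) and 72.6 TPM (rbm14) at 10 hpf. By 24 hpf it stood at 101 and 122 TPM. It thus supplied 59.8% and 64.1% of all receptor TPM at 10 hpf and 73.6% and 71.6% at 24 hpf. Its paralog epha4b, which the RefSeq table of assembly GRCz12tu lists on the same chromosome with 6 protein-coding genes starting between them, was listed at 0.01 to 0.43 TPM.

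The other EphA gene at an appreciable level was epha2a, a receptor of ephrin-A1 in vertebrates. Its level was 20.6 TPM (control) and 24.3 TPM (rbm14) at 10 hpf, then 19.6 and 24.3 TPM at 24 hpf, so the libraries lay close together. Among the EphB members, the paralogs ephb4a and ephb4b were the highest. A pair of receptor genes with upper-case symbols fell outside the rule for members, EPHB3 (1 of many) at 3.08 to 14.4 TPM and EPHA2 (1 of many) at 4.34 to 12.2 TPM. Ephb4a, whose protein marks veins, had 10.4 TPM (control) and 7.06 TPM (rbm14) at 10 hpf, then 4.96 and 9.37 TPM at 24 hpf, the higher treatment differing by stage. Ephb4b had 7.20 and 5.67 TPM, then 6.79 and 6.88 TPM. The remaining receptor members lay at or below the 4.44 TPM that ephb3a showed in the 10 hpf control library. Epha7, a receptor in brain and axon patterning, was highest at 1.91 TPM and ephb2b at 1.33 TPM, both in the rbm14 library at 24 hpf. Epha6 and ephb1 were listed at 0 to 0.02 TPM.

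Among the ligands, the ephrin-B gene efnb2a and the ephrin-A gene efna1b were the most abundant. Efnb2a, known for its roles in hindbrain segments, somite boundaries and arteries, was at 16.4 TPM (control) and 37.5 TPM (rbm14) at 10 hpf. Its 24 hpf levels were 20.5 and 67.8 TPM. Both rbm14 libraries thus held more efnb2a than either control library. Its paralog efnb2b had 15.8 and 19.98 TPM at 10 hpf but 1.19 and 3.11 TPM at 24 hpf. Efna1b had 19.0 and 30.8 TPM at the earlier stage, then 10.6 and 13.4 TPM, and efna1a had 4.37 and 6.13 TPM, then 4.63 and 10.4 TPM. The neighbours of these genes were low: efna3b lies next to efna1b in the RefSeq table and efna3a near efna1a, and neither exceeded 0.36 TPM in any library. Efna5a, a guidance cue for retinal axons, ranged from 1.97 to 4.34 TPM, whereas efna2a, efna2b and efna5b stayed under 1 TPM. The remaining ephrin-B genes efnb1, efnb3a and efnb3b ranged from 0.30 to 2.32 TPM.

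**Figure D1:**
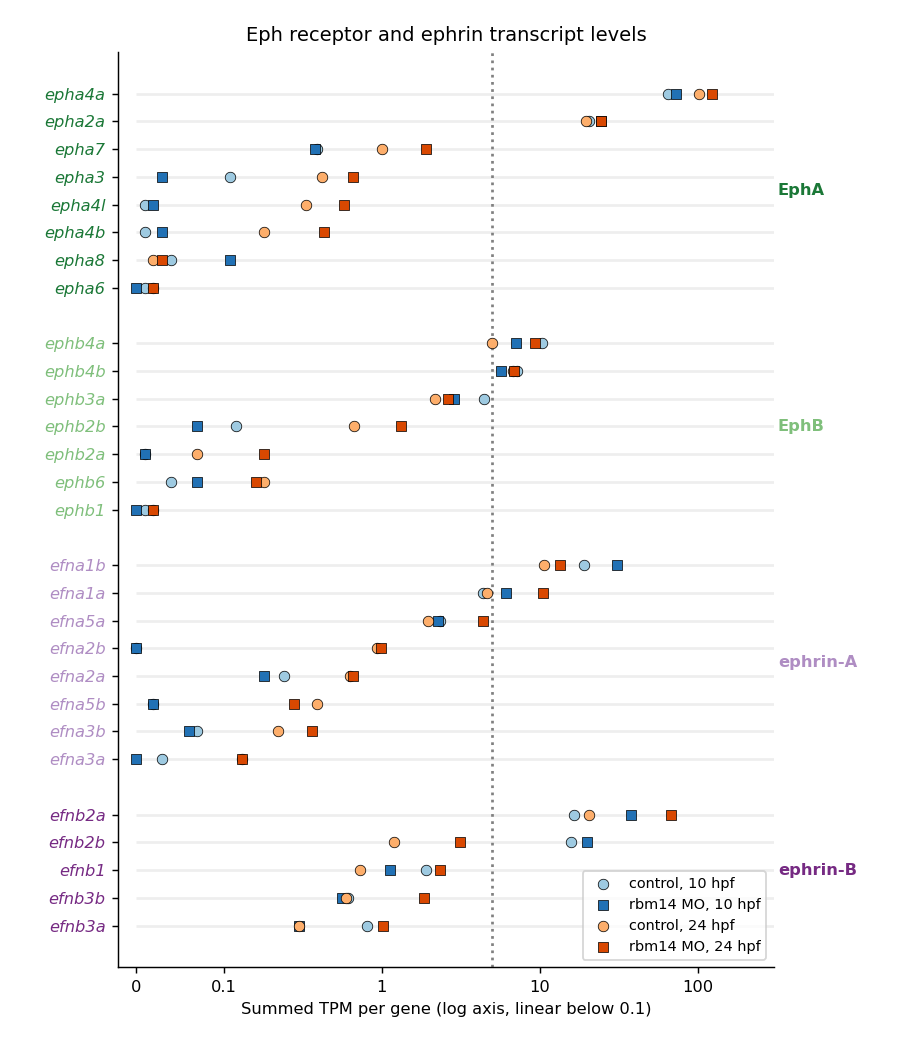
Summed TPM of each of the 28 members, by class, in the 4 libraries (circles, control; squares, rbm14 morpholinos; blue, 10 hpf; orange, 24 hpf), on a log axis that is linear below 0.1 TPM, with 5 TPM dotted. The plot shows 8 genes that reach 5 TPM, led by epha4a, and efnb2a with both squares to the right of both circles.

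At 10 hpf the comparison asks which members differ between the treatments as gastrulation ends. The ligand efnb2a was 2.66-fold higher in the rbm14 library (log2 ratio 1.41) and was the only member past the size rule of 8 that reached 5 TPM. Of all 7321 genes at 5 TPM or more, 3.57% were past the rule as higher and 5.56% as lower, and 1.60% had a ratio above that of efnb2a. The other abundant ligands lay on the same side without passing the rule, with log2 ratios of 0.93 for efna1b, 0.67 for efna1a and 0.57 for efnb2b. Efna1a reached the 5 TPM floor only in the rbm14 library. In whole embryos, more cells that express a gene and more RNA per cell cannot be told apart.

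The receptor members at 10 hpf showed smaller ratios that split by class, over 2 EphA and 3 EphB genes. Epha4a (0.42) and epha2a (0.48) were on the higher side, and ephb4a (−0.28), ephb4b (−0.09) and ephb3a (−0.33) on the lower side. With loess scaling ephb4b was at 0.07 and epha4a at 0.21. The gene EPHB3 (1 of many), outside the members, was at 0.08. Only the EphA genes among these receptors reached 20 TPM, a level at which the median of all genes was 0.20. Class and level thus cannot be told apart here. Over the members that reached 1 TPM in 1 or both libraries, the median log2 ratio was 0.62 for 6 ligands and −0.09 for 5 receptors, against −0.06 for all 11807 genes so filtered. The receptor median was 0.07 with loess scaling, and 0.08 when 2 receptor genes with upper-case symbols were added. Among the low ligands, efnb1 had 1.90 TPM (control) and 1.13 TPM (rbm14) (−0.37).

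At 24 hpf the same comparison was made once tissues had formed. Efnb2a was again the only member past the rule, 2.10-fold higher (log2 ratio 1.07), of 7 members that reached 5 TPM. Among these, efna1a (4.63 and 10.4 TPM) and ephb4a (4.96 and 9.37 TPM) reached that floor only in the rbm14 library. At this stage 7.01% of 9121 genes were past the rule as higher and 8.85% as lower, and 5.95% had a ratio above that of efnb2a. Its ratio was 1.7001 without rescaling. It was 0.52 when only the most abundant transcript of each gene was used and 0.95 with a pseudocount of 5 TPM, and in neither case was it past the rule.

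All 5 ephrin-B genes had ratios above 0 at 24 hpf, with efnb1 at 0.74 (0.73 and 2.32 TPM), efnb3b at 0.68 (0.59 and 1.85 TPM), efnb2b at 0.59 and efnb3a at 0.58 (0.30 and 1.01 TPM). With loess scaling 4 of the 5, or 80.0%, were above 0. The share of all genes above 0 was 54.9%, or 49.5% with loess, and efnb2a was the one ephrin-B gene that reached 5 TPM. The ephrin-A genes did not share a sign, since efna1a was at 0.49 and efna1b at −0.30, the latter 0.32 without rescaling. Of the abundant receptor members, epha4a (−0.37), epha2a (−0.32) and ephb4b (−0.58) lay below 0 and ephb4a (0.26) above it. The upper-case receptor genes outside the rule for members lay above 0. EPHB3 (1 of many), with 14.4 TPM in the rbm14 library, was at 1.47 and past the size rule, and EPHA2 (1 of many), with 11.4 TPM, was at 0.70. Without rescaling epha4a was at 0.27 and epha2a at 0.30, so their direction at 24 hpf rests on the scaling. Ephb4b was at 0.02 without rescaling and at 0.09 with the most abundant transcript. The median was 0.59 for 8 ligands and −0.29 for 7 receptors, against 0.08 for all 14909 genes at 1 TPM or more. Of these ligands, efnb1, efnb3a and efnb3b reached 1 TPM only in the rbm14 library, so the filter admitted them through their higher value. The receptor median was 0.30 without rescaling and 0.22 with the 2 added upper-case symbols, and the median of all genes without rescaling was 0.65. The ligand median was above 0 under every alternative run, at both stages, though not every alternative could move it. Matching symbols without regard to case added no ligand at 1 TPM or more and left the ligand median unchanged. At the 20 TPM floor this median rested on 2 ligands at 10 hpf and on efnb2a alone at 24 hpf. At 10 hpf with no floor, however, it was 0.04 over 12 ligands, against 0.0049 over 15 receptors. At 24 hpf with no floor it was 0.43 over 13 ligands, of which 61.5% were above 0, against −0.0026 over 15 receptors.

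**Figure D2:**
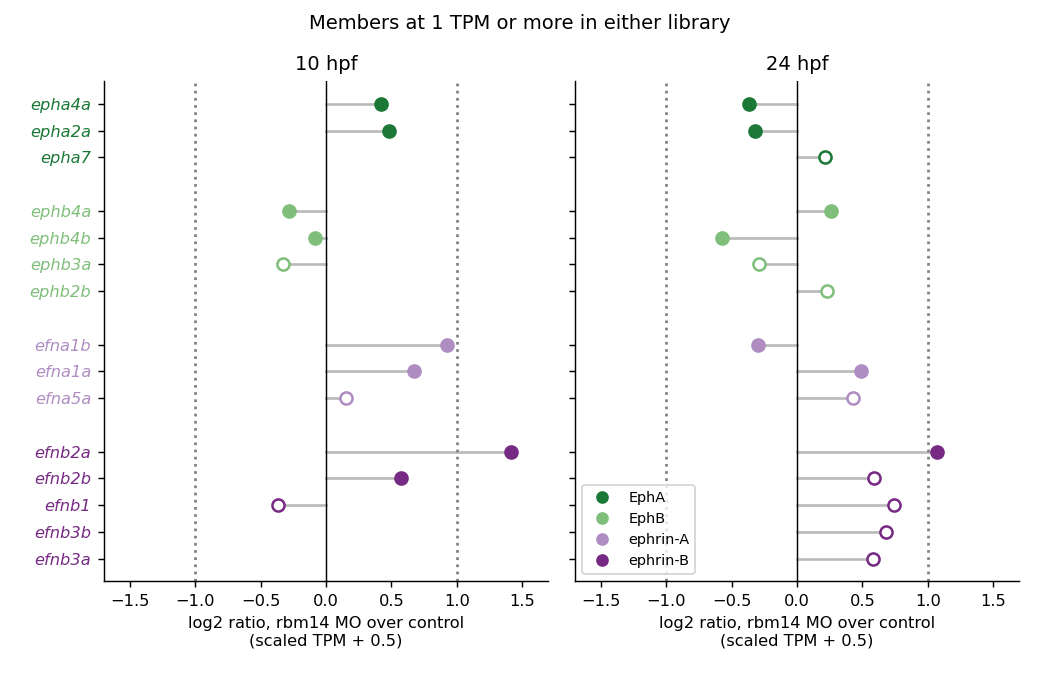
Log2 ratios of the rbm14 over the control morpholino library at 10 hpf (left) and 24 hpf (right), on scaled TPM + 0.5, for members that reach 1 TPM in 1 or both libraries; filled points reached 5 TPM, open points did not, and dotted lines mark 2-fold. Efnb2a, at 1.41 and 1.07, lies beyond the line in both panels.

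**Figure D3:**
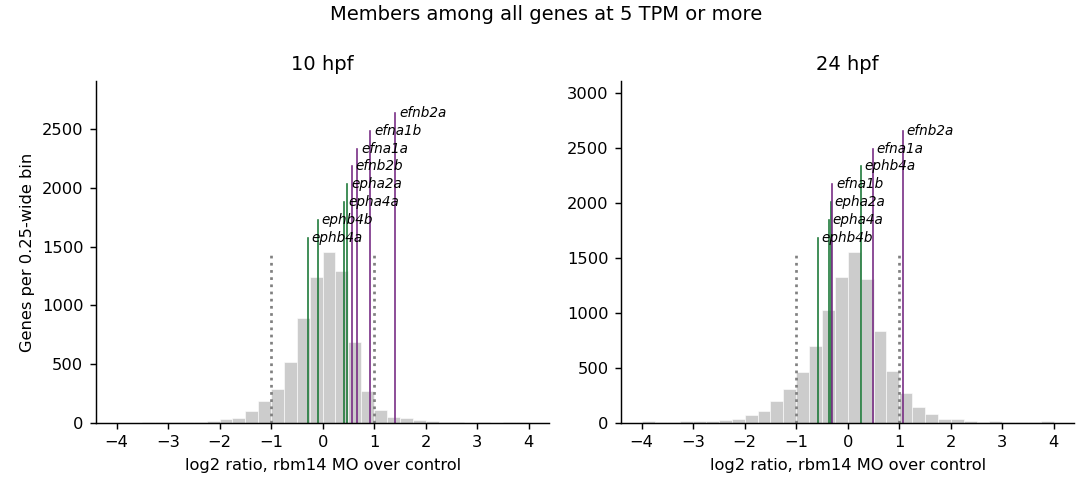
Distribution of the log2 ratios of all genes at 5 TPM or more (grey bars, 7321 genes at 10 hpf and 9121 at 24 hpf; values beyond the axis are in the end bins), with the members at 5 TPM or more as lines (purple, ligands; green, receptors). Efnb2a lies in the upper tail at both stages, while most other members lie within the body of the distribution.

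Ratios between members within a library do not depend on a single scaling factor between libraries. A scaling that varies with level, such as loess, could still alter how they compare between libraries. With loess scaling the 24 hpf median log2 ratios were 0.38 for ligands and −0.18 for receptors. Receptor genes held 1.75 TPM per TPM of ligand in the 10 hpf control and 1.14 in the rbm14 library. At 24 hpf the values were 3.21 and 1.60. The balance was therefore 1.53-fold lower with the rbm14 morpholinos at 10 hpf and 2.01-fold lower at 24 hpf, and lower in both pairs. Summed receptor TPM, as deposited, differed less than summed ligand TPM. Receptors summed to 108 and 113 TPM at 10 hpf, then 138 and 171 TPM at 24 hpf. Ligands summed to 61.6 and 98.9 TPM, then 42.9 and 107 TPM. After scaling, the log2 ratios of these sums were 0.32 for receptors and 0.93 for ligands at 10 hpf, then −0.33 and 0.67 at 24 hpf. Efnb2a carried much of the ligand difference. Without it the receptor to ligand ratio was 2.38 and 1.84 at 10 hpf and 6.17 and 4.40 at 24 hpf, which is 1.29-fold and 1.402-fold lower. Without epha4a the ratio was 0.70 and 0.41 at 10 hpf and 0.85 and 0.45 at 24 hpf.

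The classes divided differently among receptors and ligands. EphA genes held 79.4% and 86.1% of receptor TPM in the control and rbm14 libraries at 10 hpf, and 89.2% and 87.9% at 24 hpf. EphA TPM per EphB TPM was 3.85 and 6.19 at 10 hpf and 8.28 and 7.30 at 24 hpf, so the treatments differed in opposite directions at the stages, by 1.60-fold and 1.14-fold. With the 2 upper-case receptor genes added, the ratios were 3.08 and 4.56 at 10 hpf and 7.10 and 4.61 at 24 hpf, or 1.48-fold and 1.54-fold apart in the same directions. Ephrin-B genes held 57.7% and 60.1% of ligand TPM at 10 hpf, and 54.4% and 71.4% at 24 hpf. Ephrin-A TPM per ephrin-B TPM was close between treatments at 10 hpf, at 0.73 and 0.66. At 24 hpf it was 0.84 and 0.40, which is 2.09-fold lower in the rbm14 library. Efnb2a alone held 26.6% and 37.9% of ligand TPM at 10 hpf, and 47.9% and 63.6% at 24 hpf. The ephrin-B values at 24 hpf thus rest largely on this gene, and the ephrin-A to ephrin-B ratio was not taken without it.

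**Figure D4:**
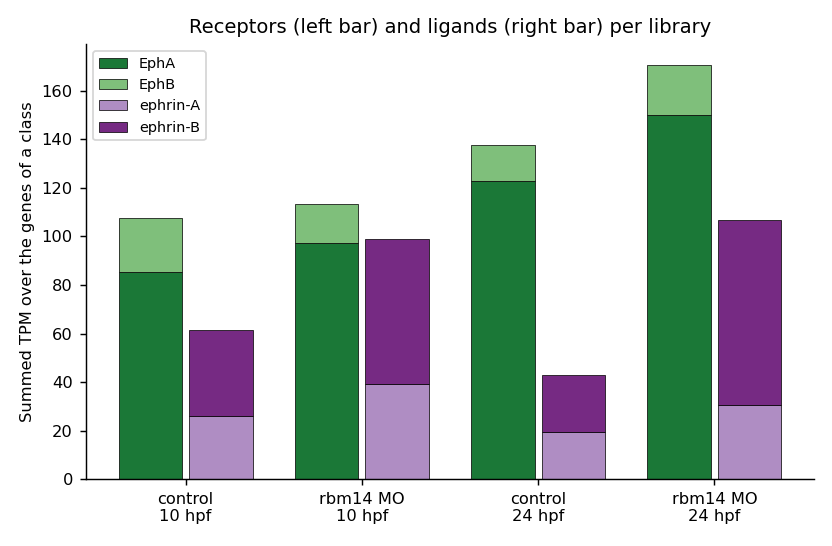
Summed deposited TPM, without scaling between libraries, of receptor genes (left bar of each pair, EphA and EphB) and of ligand genes (right bar, ephrin-A and ephrin-B) in the 4 libraries. The receptor bars stand at 108, 113, 138 and 171 TPM and the ligand bars at 61.6, 98.9, 42.9 and 107 TPM, with the ligand bar taller in each rbm14 library than in its control.

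Efnb2a was also set against 2 receptors of its protein, a choice made after the values were seen. Per TPM of epha4a, which borders efnb2a in the hindbrain and somites, there were 0.26 TPM of efnb2a with the control and 0.52 with the rbm14 morpholinos at 10 hpf, and 0.20 and 0.56 at 24 hpf. Per TPM of ephb4a, its partner between arteries and veins, there were 1.59 and 5.31 TPM of efnb2a at 10 hpf, and 4.14 and 7.24 at 24 hpf. Both ratios were higher in the rbm14 library of each stage. This direction was fixed beforehand, since efnb2a had the highest log2 ratio of the members at 5 TPM or more at each stage. Markers of endothelium were scarce at 10 hpf, where 1 of 17 reached 5 TPM. That gene was lmo2, past the rule as higher (0.36 and 6.70 TPM), where 3.57% of all genes were higher and 5.56% lower. It reached 5 TPM only in the rbm14 library. The others at 1 TPM or more were lower with the rbm14 morpholinos, tek at 3.09 and 1.11 TPM and sox7 at 2.94 and 0.45 TPM, and the median over the 3 was −0.96. At 24 hpf, of 10 endothelial markers at 5 TPM or more, kdr was higher (0.91 and 6.79 TPM), tek was lower (8.52 and 5.45 TPM) and 8 lay between. Of all genes, 7.01% were higher and 8.85% lower at this stage. Kdr, cdh5 and dll4 reached 5 TPM only in the rbm14 library. The median was −0.04 over all 17 markers. Without rescaling the endothelial medians were −1.16 at 10 hpf and 0.51 at 24 hpf, so the sign at 24 hpf rests on the scaling. The summed level of the endothelial list, in deposited TPM without scaling, was 8.55 and 10.3 TPM at 10 hpf, then 145 and 206 TPM at 24 hpf. Without lmo2, a choice made after seeing the data, the sums were 8.19 and 3.55 TPM, then 135 and 176 TPM. The part of these tissues in the efnb2a difference was not tested.

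Markers of the other tissues in which efnb2a and epha4a are known to be active were read the same way, with 3.57% of all genes higher and 5.56% lower at 10 hpf, and 7.01% and 8.85% at 24 hpf. Counts past the rule are of markers at 5 TPM or more, and all medians are over markers at 1 TPM or more. Of 15 presomitic and somite markers at 5 TPM or more at 10 hpf, none was past the rule, with a median of 0.41 over 17 at 1 TPM or more. At 24 hpf 2 of 14 were higher, her7 (6.93 and 26.0 TPM) and tbx16 (1.93 and 7.08 TPM), and none lower (median 0.15). Tbx16 reached 5 TPM only in the rbm14 library. Without rescaling the somite medians were 0.16 and 0.73, against −0.29 and 0.65 for all genes. Of hindbrain segment markers, 1 of 6 was past the rule at 10 hpf, hoxb1a as lower (6.26 and 2.24 TPM). At 24 hpf 1 of 12 was past it, hnf1ba as higher (4.89 and 17.4 TPM), which reached 5 TPM only in the rbm14 library. The hindbrain medians were 0.01 and 0.10, or −0.24 and 0.73 without rescaling. Stress and p53-target markers, among them cdkn1a and mdm2, had medians of 0.92 and 3.46, with 4 of 9 and 10 of 10 past the rule as higher. Their summed level, in deposited TPM without scaling, was 779 and 1304 TPM at 10 hpf, then 372 and 4788 TPM at 24 hpf. Of those past the rule at 10 hpf, gadd45aa (3.50 and 9.36 TPM) and bbc3 (4.22 and 7.57 TPM) reached 5 TPM only in the rbm14 library. At 24 hpf gadd45aa, bbc3, isg15 and casp8 did so. Medians of the retina, midbrain, neural crest and epidermis markers lay between −0.15 and 0.30 at 10 hpf and between −0.34 and −0.10 at 24 hpf. Without rescaling they lay between −0.39 and 0.05 at 10 hpf and between 0.28 and 0.52 at 24 hpf. Their signs at 24 hpf thus rest on the scaling. At that stage 1 of 14 retina markers was higher and 2 were lower, and 2 of 10 neural crest markers were lower. The higher retina marker, six6a (3.45 and 14.8 TPM), reached 5 TPM only in the rbm14 library. Of 10 epidermis markers 1 was higher, and no midbrain marker was past the rule. At 10 hpf 1 of 5 neural crest markers was lower, and no other marker of these tissues was past the rule. Neuron markers had a median of −0.57 at 24 hpf, or −0.02 without rescaling, with 1 of 5 higher and 1 lower. Only 1 of them was measured at 10 hpf, tubb5 (46.2 and 8.21 TPM), which was past the rule as lower at −2.18. The part of these values in the Eph and ephrin ratios was not tested.

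The transcripts behind the sums were compared next. The most abundant transcript of a gene was the same in both treatments for all 7 members examined at 10 hpf and all 5 at 24 hpf, that is, those with several transcripts and at least 5 TPM in both libraries. The main efnb2a transcript, ENSDART00000026011, had 13.7 TPM (control) and 27.1 TPM (rbm14) at 10 hpf, then 20.5 and 45.3 TPM at 24 hpf. A further efnb2a transcript, ENSDART00000141584, had 2.74 and 6.89 TPM at 10 hpf, and at 24 hpf was listed at 0 in the control and at 20.7 TPM in the rbm14 library, where it made up 30.5% of the gene. The last, ENSDART00000144999, was listed at 0 in both controls and at 3.54 and 1.89 TPM in the rbm14 libraries. In deposited TPM all efnb2a transcripts were thus higher in the rbm14 library of each stage, and the minor ones were listed at 0 in 3 of 4 control readings.

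Transcript shares also differed in other members. Epha4a kept 85.8% to 95.6% of its TPM in ENSDART00000173665, while ENSDART00000148563 had 3.62 and 1.77 TPM at 10 hpf and was at 0 and 7.28 TPM at 24 hpf. Ephb4b, whose deposited sums at 24 hpf were close (its scaled log2 ratio was −0.58), divided differently there. Its main transcript ENSDART00000097644 had 4.11 TPM (control) and 6.73 TPM (rbm14), and ENSDART00000136056 had 2.68 and 0.15 TPM, or 39.5% and 2.18% of the gene. An exact 0 in such tables can be a failed estimate, and the labels do not say how reads were divided among the transcripts of a gene.

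**Figure D5:**
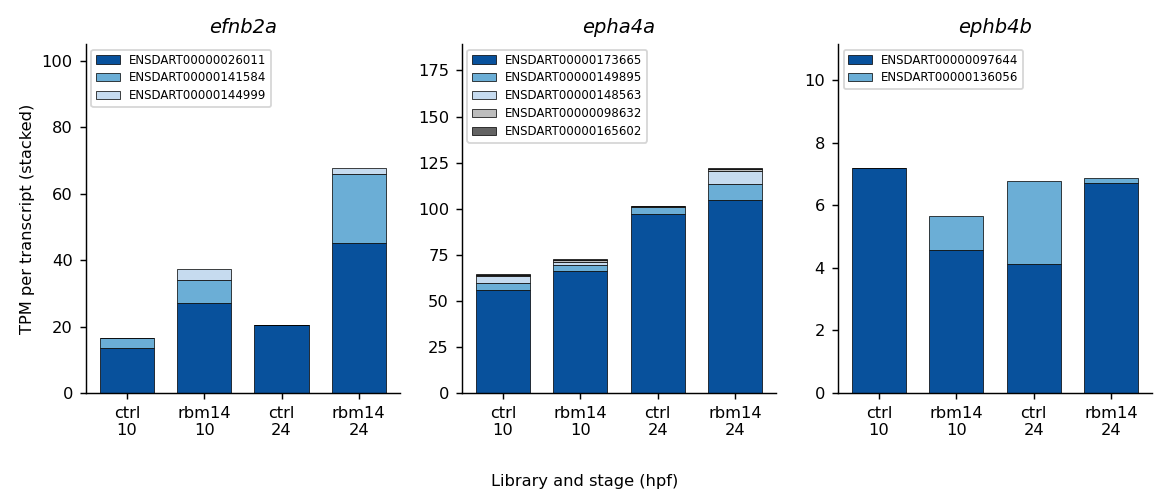
TPM of each annotated transcript of efnb2a, epha4a and ephb4b, stacked, in the 4 libraries (ctrl, control; rbm14, rbm14 morpholinos; stage in hpf below). For efnb2a the main transcript is at 20.5 and 45.3 TPM at 24 hpf, and a further transcript is listed at 0 and 20.7 TPM.

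Between the stages the members followed different courses, and each treatment shares its libraries with the comparisons above. In the controls, of 7 members at 5 TPM or more, epha4a was higher at 24 than at 10 hpf (log2 ratio 1.17, 2.25-fold) and efnb2b was lower (−2.83, 7.10-fold). The background was wide here, with 29.6% of 8784 genes past the rule as higher and 23.1% as lower. Epha4a was at 0.65 without rescaling and then not past the rule. In the rbm14 libraries, of 8 members, efnb2b (−2.84, 7.16-fold) and efna1b (−1.53, 2.89-fold) were lower at 24 hpf and none was higher, where 35.4% of 9551 genes were higher and 22.1% lower. Efna1b was at −0.30 in the controls and epha4a at 0.38 in the rbm14 libraries, neither past the rule, and the difference between treatments was not tested.

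Shares within the efnb2 and efna1 paralog pairs differed by stage in both treatments, and those within the ephb4 pair mainly in the controls. Efnb2a made up 51.0% of the efnb2 pair in the 10 hpf control and 65.2% in the rbm14 library, and 94.5% and 95.6% at 24 hpf. Efna1b made up 81.3% and 83.4% of the efna1 pair at 10 hpf, and 69.7% and 56.3% at 24 hpf. Ephb4a made up 59.0% and 55.5% of the ephb4 pair at 10 hpf, and 42.2% and 57.7% at 24 hpf. Several neural receptors and ligands were nearly absent at 10 hpf and detectable at 24 hpf at low levels. Epha7 went from 0.39 to 1.0 TPM in the controls and from 0.38 to 1.91 TPM in the rbm14 libraries, ephb2b from 0.12 to 0.67 and from 0.07 to 1.33 TPM, and efna2b from a listing of 0 in both to 0.93 and 0.99 TPM.

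Genes that act with Eph receptors and ephrins were read from lists of kinases, of adaptors and phosphatases, and of proteases. Medians here are over the genes of a list at 1 TPM or more. At 10 and 24 hpf these were 3 and 6 kinases, 18 and 23 adaptors and phosphatases, and 10 and 11 proteases. Of 7 genes for Src-family and Abl kinases, which Eph receptors engage inside the cell, 3 reached 5 TPM at each stage. None of them was past the rule at 10 hpf, set against 3.57% (higher) and 5.56% (lower) of all genes. At 24 hpf 1 of the 3 was higher, set against 7.01%, and none lower, set against 8.85%. It was the Abl-family kinase gene abl2 (2.86 and 18.8 TPM as deposited, 3.83-fold after scaling and adding 0.5 TPM). Abl2 reached 5 TPM only in the rbm14 library. The kinase medians were 0.07 at 10 hpf, or −0.17 without rescaling, and 0.42 at 24 hpf, or 1.02 without rescaling. Of 31 adaptor and phosphatase genes, 9 reached 5 TPM at 10 hpf and 12 at 24 hpf, and none was past the rule at either stage. Their medians were 0.06 at 10 hpf, or −0.17 without rescaling, and 0.19 at 24 hpf, or 0.79 without rescaling. The proteases that cut ephrins and Eph receptors, such as the Adam10 and presenilin genes, had 8 members at 10 hpf and 10 at 24 hpf at 5 TPM or more, none of them past the rule. Their medians were −0.05 at 10 hpf and −0.00098 at 24 hpf, the latter 0.63 without rescaling.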

How the data were processed

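Poly(A) RNA was measured in 4 libraries, 1 for each morpholino treatment and stage. The deposited values are TPM for 57596 Ensembl transcripts and their symbols, a unit taken from their sum of 1000000 in each library. Build GRCz10 and the tools HTSeq 0.6.1, HISAT2 2.0.1 and Trimmomatic 0.30 are named, per the submitters' processing notes. No source used here gives the annotation release, the strand setting or the tool behind the transcript values. Reads from near-identical paralogs may have been divided between them. No coordinates or sequences are given.

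Values were summed by symbol with Python 3.11.15 and pandas 2.3.3. For each pair of libraries the scaling factor was a trimmed mean of log2 ratios without weights (genes at 1 TPM or more in both, 30% of ratios and 5% of levels trimmed at each end), and 0.5 TPM was added. The scaling and size rule were tested on simulated data with a constant shift and as many genes raised as lowered. These simulations do not cover a shift that varies with level, or differences that lie mostly to the same side. The 9 alternatives changed the scaling, the pseudocount, the floor, the transcript summary or the symbol match. All 28 symbols are in the RefSeq table of GRCz12tu, used for names and gene order only. Of 214 list entries 202 matched by symbol, 7 by synonym and 5 did not match. Members past the rule in any comparison, or among the 6 highest in any library, were named with all values, and up to 3 pathway genes per list. The members and lists were chosen with earlier results of these data known. Some pathway lists are not reported here.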

Additional observations from a re-analysis of the deposited data

Results flagged for a closer look

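For 4 of the 7 members that reached 5 TPM at both stages, the ratio of the rbm14 over the control library had opposite signs at the 2 stages, and the difference between stages was not tested. Efna1b had a log2 ratio of 0.93 at 10 hpf and −0.30 at 24 hpf, epha2a 0.48 and −0.32, and epha4a 0.42 and −0.37. The 24 hpf values of these 3 genes were above 0 without rescaling, at 0.32, 0.30 and 0.27. Ephb4a went the other way, with −0.28 at 10 hpf and 0.26 at 24 hpf, and kept these signs under all 9 alternatives. Among these, the changes of floor and of symbol match cannot alter the ratio of a single gene. At 24 hpf ephb4a reached 5 TPM only in the rbm14 library (4.96 TPM in the control, 9.37 TPM in the rbm14 library).

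Receptor genes with upper-case symbols, which the symbol rule left out, stood above their control at 24 hpf. The gene listed as EPHB3 (1 of many) had 3.08 TPM (control) and 14.4 TPM (rbm14) at 24 hpf (log2 ratio 1.47, past the size rule). Its 10 hpf levels were 9.29 and 8.28 TPM (0.081, and −0.17 without rescaling). The gene listed as EPHA2 (1 of many) had 4.34 and 11.4 TPM at the later stage (0.70), and 11.3 and 12.2 TPM at the earlier (0.34). Which zebrafish paralogs these symbols stand for is not given in the files.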

How the results depend on the processing

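Of 87 values recomputed for the counts, medians and receptor to ligand ratios, 63 stayed within 1.5 times for counts, or within 0.25 on the log2 scale, and 24 did not. The cause was not tested for any of them, beyond the fewer genes that a higher floor leaves. At 10 hpf efnb2a was the member past the rule under every alternative (1.17 to 1.41), where 2.98% to 12.8% of all genes were past it in either direction. At 24 hpf the count of 1 was 2 without rescaling (efna1a, 1.085) and with upper-case symbols, and 0 with a pseudocount of 5 TPM and with the most abundant transcript. Of all genes, 29.7%, 15.9%, 7.65% and 16.2% were past the rule in these runs, in that order, against 15.9% in the main run. Between stages the control count of 2 was 1 without rescaling (higher 0, lower 1) and at a floor of 20 TPM, and the rbm14 count of 2 was 4 at a floor of 1 TPM and 1 at 20 TPM. The shares of all genes were 60.5% and 55.2% in these control runs, against 52.7% in the main run. In the rbm14 runs they were 59.2% and 58.0%, against 57.4%. The member median at 10 hpf (0.42) was 0.0097 with no floor and 0.70 at 20 TPM, and 0.17 without rescaling, just within the limit. At 24 hpf (0.26) it was 0.85 without rescaling and −0.32 at 20 TPM, where 3 members remained measured. With loess it was 0.019 and with no floor 0.016, both within the limit of 0.25 but close to 0. Between control stages (0.31) it was −0.14 without rescaling, −0.17 with loess, 0.82 at 20 TPM, −0.26 with the most abundant transcript and −0.043 with upper-case symbols. Between rbm14 stages (0.38) it was 0.75 without rescaling, −0.44 with loess and 0.012 at 20 TPM. Receptor TPM per ligand TPM in the 10 hpf control (1.75) was 2.08 with upper-case symbols and had no value at 20 TPM, where no ligand gene remained. At that floor the other libraries had 1.42 (10 hpf, rbm14), 4.94 (24 hpf, control) and 2.16 (24 hpf, rbm14). Without rescaling, 155 genes were higher and 676 lower at 10 hpf (261 and 407 in the main scaling), and 2460 and 250 at 24 hpf (639 and 807). No paired analysis was possible because each group has 1 library, and for the same reason no replicate could be left out. Depth is unknown, so no counting limit was set.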
